A study of Oryctolagus cuniculus with 4 samples.

Results

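Cell junction genes encode the proteins that join neighbouring cells to one another and let some of them exchange small molecules. The set described here held 67 of the 18475 gene rows of the rabbit feature lists, namely every row whose symbol belongs to the claudins, the other tight junction membrane proteins and scaffolds, the numbered cadherins, the catenins, the nectins, the desmosomal proteins or the connexins. The choice rested on symbols alone and used no measured value. It comprised 11 claudins, 5 other membrane proteins of the tight junction, 3 tight junction scaffolds, 18 cadherins, 9 catenins, 3 nectins, 7 desmosomal genes and 11 connexins. Family members that carry no such symbol in the feature lists, among them CLDN4, CLDN5 and DSG2, were not analysed here.

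The cells came from bladder mucosa of adult New Zealand rabbits and were profiled by droplet-based single-cell RNA sequencing of 3′ transcript ends, with 1 library per rabbit. In 2 rabbits (Injury_1 and Injury_2) a patch of mucosa had been resected and the tissue was taken on day 10, when new urothelium had closed over the wound, and 2 rabbits (Normal_1 and Normal_2) had uninjured bladders. The injured samples therefore stand for 1 time point of healing. The labels call the tissue urothelium, but epithelial-like cells made up 2.84% to 10.2% of the cells of a sample.

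Tight junctions seal the space between epithelial or endothelial cells: claudins and occludin span the membrane, and scaffolds such as TJP1 (ZO-1) tie them to actin. Adherens junctions hold cells together through cadherins, which bind catenins inside the cell, while desmosomes anchor keratin filaments and gap junctions are channels made of connexins. In the bladder these structures underlie the urothelial barrier against urine, the lining of vessels and the electrical coupling of muscle.

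After filtering, 4308 to 6081 cells per rabbit remained, with a median of 4813.5 (Normal_1) to 7186 UMIs (unique molecular identifiers, each a captured RNA molecule) per cell. Cells were clustered without the 67 genes, and clusters were named from other markers, so that neither CDH1 nor CDH5 defined a class. There were 7 classes with at least 20 cells in every sample, termed fibroblast-, endothelial-, smooth muscle-, pericyte-, epithelial-, T cell- and macrophage-like, and every listed marker of these classes with a row was highest on average in its own class. Epithelial-like cells numbered 565, 354, 441 and 171 in Injury_1, Injury_2, Normal_1 and Normal_2. A cluster of 1781 cells led by PTPRQ, HHIP and WIF1, of which 1025 came from Normal_2, scored alike for fibroblast and smooth muscle markers and stayed unnamed, as did 5 smaller clusters. Pairs of libraries shared 8 to 13 cell barcodes.

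Levels are in CPM (counts scaled to 1000000 UMIs within a class and rabbit) and are quoted as mean ± SD over the 4 rabbits. Of the 67 genes, 8 had no UMI in any kept cell and 26 reached a mean of 20 CPM in at least 1 class. Epithelial-like cells had the highest level in every rabbit for 9 of these 26 genes (CDH1, CTNNA1, CTNNBIP1, CLDN1, DSP, DSC2, JUP, OCLN and CGN), and endothelial-like cells for 7 (CDH5, CDH13, CTNNAL1, PKP4, GJA1, JAM2 and TJP1). Among all 5297 genes of such a level, 11% were highest in epithelial-like and 7.36% in endothelial-like cells in every rabbit. Smooth muscle-like cells led for CLDN10 and CTNNA3 (6.15% of all genes), fibroblast-like cells for NECTIN3 (5.34%) and pericyte-like cells for GJC1 (3.13%). For T cell-like and macrophage-like cells the count was 0, against 7.8% and 4.95% of all genes. In total 20 of the 26 genes kept the same class on top in every rabbit, and so did 45.7% of all genes. Since the classes are clusters of the same cells, these orders are a description without a test.

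**Figure D1:**
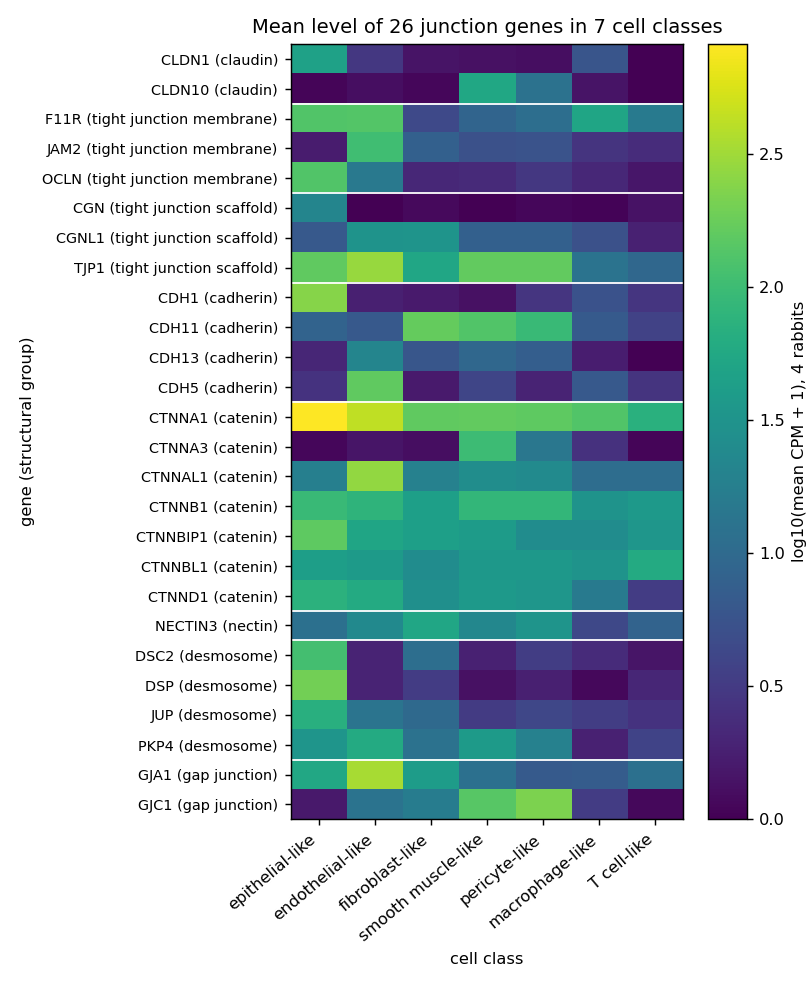
The heat map shows the 26 junction genes with a mean of at least 20 CPM in 1 class or more, in rows grouped by structural group, across 7 cell classes in columns, coloured by log10(mean CPM + 1) over 4 rabbits. Desmosomal genes other than PKP4 stand out in the epithelial-like column and JAM2, CDH5 and CTNNAL1 in the endothelial-like column.

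Summed over all 67 genes, junction transcripts took 2492 ± 432 CPM in epithelial-like and 2145 ± 196 CPM in endothelial-like cells, with overlapping ranges of 2157 to 3104 and 1931 to 2352 CPM. Smooth muscle-like cells had 1107 ± 202 CPM, pericyte-like cells 974 ± 91.7 CPM and fibroblast-like cells 737 ± 64.1 CPM. Macrophage-like cells (373 ± 52.6 CPM) and T cell-like cells (279.7 ± 78.5 CPM) came last, with neighbouring ranges that overlapped (328 to 446 and 217 to 393 CPM).

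Among the claudins, which form the paracellular seal, 4 of 11 had no UMI and 2 reached 20 CPM. CLDN1 measured 44.9 ± 37.0 CPM in epithelial-like cells, with 19.9 and 8.90 CPM in Injury_1 and Injury_2 and 88.2 and 62.8 CPM in Normal_1 and Normal_2. Macrophage-like cells were next with 4.90 ± 1.46 CPM, and in every rabbit the epithelial value lay above them. CLDN10 was instead a gene of smooth muscle-like cells, at 71.8, 33.0, 78.9 and 31.9 CPM in Injury_1, Injury_2, Normal_1 and Normal_2. It was close to 0 in epithelial-like cells (0.0822 CPM) and reached 11.6 ± 13.1 CPM in pericyte-like cells. The 5 claudins between these (CLDN2, CLDN8, CLDN12, CLDN19 and CLDN20) stayed at or below 1.85 CPM on average in each of the 7 classes.

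OCLN, which encodes occludin, was highest in epithelial-like cells at 197, 144, 116 and 69.7 CPM in Injury_1, Injury_2, Normal_1 and Normal_2. Endothelial-like cells had 13.9 ± 7.76 CPM of it and every other class under 2 CPM. MARVELD2 (tricellulin), found where the corners of cells meet, followed with 16.2 CPM in epithelial-like cells. The 2 junctional adhesion molecules of this group differed in range. F11R (JAM-A) was at 134 ± 23.2 CPM in endothelial-like and 129.8 ± 24.5 CPM in epithelial-like cells, which cannot be ordered, and still at 50.5 CPM in macrophage-like cells. JAM2 (JAM-B) was found at 103 ± 22.5 CPM in endothelial-like cells and at no more than 6.85 CPM elsewhere.

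All 3 tight junction scaffolds reached 20 CPM, each with its own distribution. TJP1 was at 290.1 ± 46.5 CPM in endothelial-like cells, and at 164 ± 40.7, 162 and 157 CPM in smooth muscle-, pericyte- and epithelial-like cells, 3 classes whose order did not exceed their spread. CGN (cingulin) was highest in epithelial-like cells, at 20.2 ± 5.46 CPM against at most 0.379 CPM elsewhere. Its relative CGNL1 (paracingulin) was low there (5.45 CPM) and stood at 30.9 ± 8.21 CPM in fibroblast-like and 30.01 ± 6.43 CPM in endothelial-like cells.

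The cadherins split by lineage. CDH1 (E-cadherin) measured 191.5, 201, 355 and 216 CPM in epithelial-like cells of Injury_1, Injury_2, Normal_1 and Normal_2, and no other class exceeded 4.49 CPM on average. CDH5 (VE-cadherin) measured 137, 149.6, 155 and 185 CPM in endothelial-like cells, against 5.50 ± 6.14 CPM in macrophage-like cells. Neither gene overlapped between its class and the next.

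CDH11 (OB-cadherin of mesenchymal cells) was shared by the stroma, at 168 ± 46.7 CPM in fibroblast-like, 132 ± 27.6 CPM in smooth muscle-like and 94.1 CPM in pericyte-like cells, and fibroblast-like cells exceeded smooth muscle-like cells in 3 of 4 rabbits. The unnamed PTPRQ cluster had more of it than any named class, at 324, 412, 300.2 and 441 CPM in the 4 rabbits. CDH13 (T-cadherin, which lacks an intracellular tail) was at 20.3 ± 7.75 CPM in endothelial-like cells and at 21.3 ± 13.5 CPM in that cluster. The remaining 14 cadherins stayed under 20 CPM in every described class, 2 of them without a UMI.

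Among the catenins, the cytoplasmic partners of cadherins, CTNNA1 (alpha-E-catenin) was measured in every class, from 68.8 CPM in T cell-like to 817 ± 97.0 CPM in epithelial-like cells, 1.91 times the endothelial level of 429 ± 31.8 CPM. CTNNB1 (beta-catenin) was more even, at 92.9 ± 22.7, 84.9 ± 22.4, 83.1 and 78.0 CPM in epithelial-, pericyte-, smooth muscle- and endothelial-like cells, an order within the spread. CTNND1 (p120-catenin) was at 73.9 ± 20.8 and 58.6 ± 8.33 CPM in epithelial- and endothelial-like cells, again overlapping.

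Alpha-T-catenin, CTNNA3, was found in smooth muscle-like cells at 54.9, 95.9, 164.5 and 79.8 CPM in Injury_1, Injury_2, Normal_1 and Normal_2, 7.34 times its mean in pericyte-like cells and at most 1.63 CPM in the other classes. CTNNAL1 (alpha-catulin), a relative of alpha-catenin, was at 277 ± 64.6 CPM in endothelial-like cells, 10.9 times the next of the 7 classes. It was not confined to them, with 56.8 ± 15.7 CPM in the unnamed PTPRQ cluster. Glia-like and lymphatic endothelial-like cells, too few for these classes, had more of it than endothelial-like cells (444 to 516 CPM, given below). CTNNBIP1, which encodes an inhibitor of the binding of beta-catenin to TCF factors, was at 153 ± 73.4 CPM in epithelial-like and 51.0 ± 10.8 CPM in endothelial-like cells. CTNNBL1, a catenin by name that acts in splicing, was at 59.7 ± 15.4 CPM in T cell-like cells, not above the epithelial value in every rabbit. Of the nectins, which start cell contacts, NECTIN3 was highest in fibroblast-like cells at 39.4, 55.3, 42.6 and 70.6 CPM.

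Desmosomal transcripts marked epithelial-like cells, with DSP (desmoplakin, the link to keratin) at 194 ± 103 CPM, 84.0 times the next class. Its value of 349 CPM in Normal_1 stood apart from 147, 148 and 132.5 CPM in Injury_1, Injury_2 and Normal_2. DSC2 (desmocollin-2, a desmosomal cadherin) followed the same class at 178, 124, 85.2 and 44.7 CPM in Injury_1, Injury_2, Normal_1 and Normal_2. It was also found at 10.3 ± 4.05 CPM in fibroblast-like cells. JUP (plakoglobin, shared by desmosomes and adherens junctions) was at 68.7 ± 14.8 CPM in epithelial-like and 12.1 CPM in endothelial-like cells. PKP4, an armadillo protein of adherens junctions too, was broader, at 59.03 ± 7.26 CPM in endothelial-like, 37.2 CPM in smooth muscle-like and 32.4 CPM in epithelial-like cells.

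Of the 11 connexins, 2 reached 20 CPM, and they took up different cells. GJA1 (connexin 43) was at 436, 284, 324.5 and 298 CPM in endothelial-like cells of Injury_1, Injury_2, Normal_1 and Normal_2, 6.12 times the mean of epithelial-like cells. It stood at 39.96 CPM in fibroblast-like cells and at 94.4 ± 41.0 CPM in the unnamed PTPRQ cluster. GJC1 (connexin 45) was at 217 ± 49.7 CPM in pericyte-like and 141 ± 55.8 CPM in smooth muscle-like cells, with pericyte-like cells higher in every rabbit, and at 0.569 CPM in epithelial-like cells.

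**Figure D2:**
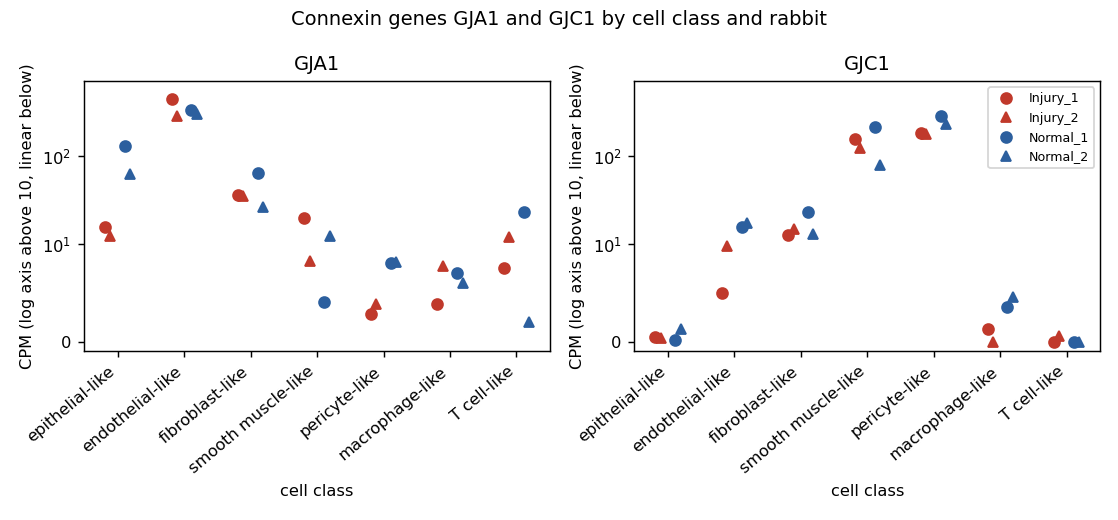
Each point is the CPM of GJA1 (left) or GJC1 (right) in 1 cell class of 1 rabbit, on an axis that is logarithmic above 10 CPM and linear below. GJA1 is highest in endothelial-like cells of every rabbit and its epithelial-like points separate into 15.5 and 12.1 CPM (injured) and 129.7 and 62.2 CPM (normal), while GJC1 is highest in pericyte-like cells.

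After thinning each cell to 1000 UMIs, 18.9% of epithelial-like cells were expected to hold a CDH1 UMI (75.9% without thinning) and 14.7% of endothelial-like cells a CDH5 UMI (56.1%). For GJA1 the thinned share was 25.3% in endothelial-like (67.2%), 4.17% in epithelial-like (29.7%) and 3.43% in fibroblast-like cells (19.2%). It was 0.844% in T cell-like and 0.503% in macrophage-like cells, in which this connexin is low. The epithelial-like share was 1.52% and 1.03% in Injury_1 and Injury_2 and 9.91% and 5.05% in Normal_1 and Normal_2. The median depth per sample was 11949 to 19902 UMIs in epithelial-like, 3302.5 to 3927 in T cell-like and 5932 to 6646 in macrophage-like cells.

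The comparison of injured with normal rabbits asked how junction genes differ once the wound is covered. GJA1 and CLDN1 were the 2 junction genes that passed the edgeR threshold in epithelial-like cells, and both were lower in the injured rabbits. GJA1 measured 15.5 and 12.1 CPM in Injury_1 and Injury_2 and 129.7 and 62.2 CPM in Normal_1 and Normal_2, so that both injured rabbits lay below both normal ones, by 6.96-fold in the means. Its log2 fold change was −3.01 ± 0.34 (SE, n = 2 against 2), with an adjusted p of 0.0267 in edgeR's quasi-likelihood test. CLDN1, at 19.9 and 8.90 CPM against 88.2 and 62.8 CPM, had a log2 fold change of −2.63 ± 0.39 and an adjusted p of 0.0418 in the same edgeR test. Of 67 genes 28 could be tested in these cells, and the 2 called compare with 1.72% of all 7045 genes tested. Leaving out Injury_2 ended both calls, with edgeR adjusted p of 0.0524 for GJA1 and 0.0890 for CLDN1, and so did a mitochondrial limit of 10% (0.0992 and 0.0791). With 1 library left out in turn, the log2 fold change was −3.35 to −2.54 for GJA1 and −3.25 to −2.20 for CLDN1. The number of calls also depended on which library was left out.

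CDH5 is an endothelial gene, and its level in epithelial-like cells moved with the groups, at 0.138, 0.356, 1.71 and 4.60 CPM in Injury_1, Injury_2, Normal_1 and Normal_2. At the ratio of GJA1 to CDH5 measured in endothelial-like cells of the same rabbit, this amount of CDH5 would come with 0.441, 0.675, 3.58 and 7.40 CPM of GJA1. Epithelial-like cells of Injury_1 and Injury_2 held 7242885 and 5617093 UMIs in all. Their CDH5 values, and the amounts scaled from them, thus rest on very few UMIs. The part of endothelial RNA in the difference of GJA1 was not tested. The 8 endothelial markers summed to 56.1, 71.6, 34.1 and 104.6 CPM in these cells. In both injured rabbits 4 of them were lower and 1 was higher. Among the lower ones, PECAM1 was at 2.21, 3.74, 9.10 and 16.8 CPM. The clusters that made up the class also differed in share: the one led by SPP1 and CYP4B1 held 406 of 565, 229 of 354 and 252 of 441 cells in Injury_1, Injury_2 and Normal_1, and 61 of 171 in Normal_2, where the cluster led by SERPINB5 and KRT5 held 110.

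Other junction genes of epithelial-like cells differed without overlap but did not pass the main edgeR test. CTNNAL1 measured 2.62 and 2.49 CPM in the injured and 12.9 and 50.6 CPM in the normal rabbits (log2 fold change −3.93 ± 0.79, edgeR adjusted p 0.0750), where the CDH5 present would come with 0.290, 0.637, 3.92 and 4.95 CPM of it at the endothelial ratio. It passed the threshold in DESeq2, with library size alone, without the filter on low counts, without Normal_1 (edgeR adjusted p 0.01075) and without Normal_2 (edgeR adjusted p 0.0359). CTNNBIP1 was at 100.2 and 96.3 CPM against 253 and 163 CPM (−1.31 ± 0.24, edgeR adjusted p 0.0608), and GJB2 (connexin 26) at 5.94 and 9.08 CPM against 23.5 and 17.4 CPM (−1.68 ± 0.36, edgeR adjusted p 0.0816). CDH1 and TJP1 had log2 fold changes of −0.76 ± 0.26 and −0.64 ± 0.22, with edgeR adjusted p of 0.178 and 0.186.

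Higher values in both injured rabbits were measured for OCLN, DSC2 and MARVELD2. DSC2 was at 178 and 124 CPM in the injured and 85.2 and 44.7 CPM in the normal rabbits (log2 fold change 0.99 ± 0.30, edgeR adjusted p 0.149). OCLN was at 197 and 144 CPM against 116 and 69.7 CPM (0.64 ± 0.26, edgeR adjusted p 0.242), and MARVELD2 at 24.99 and 16.6 CPM against 15.4 and 7.89 CPM (0.59 ± 0.36, edgeR adjusted p 0.411). The largest positive value belonged to CDH17 (LI-cadherin), at 17.8 CPM in both injured rabbits and 5.50 and 4.28 CPM in the normal ones (1.62 ± 0.33, edgeR adjusted p 0.0751). CTNNB1 (−0.57 ± 0.26) and DSP (−0.90 ± 0.38) overlapped between the groups.

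**Figure D3:**
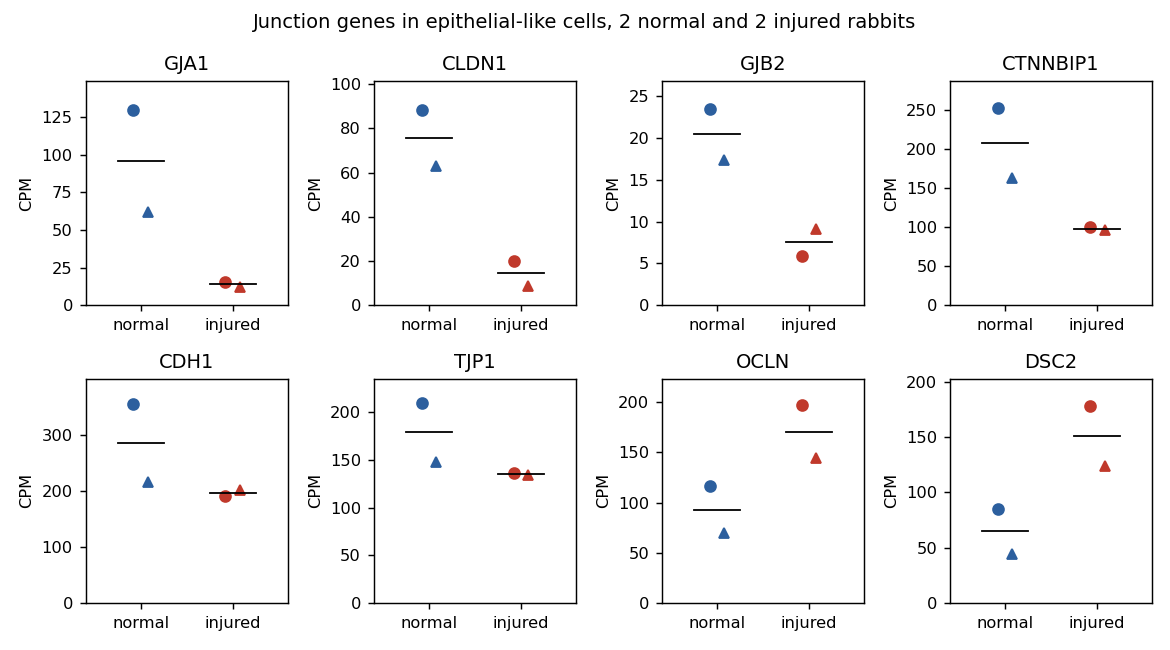
CPM of 8 junction genes in epithelial-like cells is plotted for the normal (blue) and injured (red) rabbits, with circles for rabbit 1 and triangles for rabbit 2 of each group and a line at the group mean. GJA1 and CLDN1 are lower in both injured rabbits, as are GJB2, CTNNBIP1, CDH1 and TJP1, while OCLN and DSC2 are higher.

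In all, 19 of the 28 tested genes did not overlap between the groups, 10 higher and 9 lower in the injured rabbits, where 54.9% of all genes tested did not overlap and 15.5% were lower in both injured rabbits on this CPM scale. A p under 0.05 before adjustment was reached by 13 of the 28, against 20.5% of all genes. The median log2 fold change of the 28 genes was −0.33, and that of all genes tested 0.00. With library size alone in place of TMM scaling the median of all genes moved to 0.23, 3 junction genes were called, all lower, and the split of all calls changed from 46 higher and 75 lower to 103 higher and 84 lower. None of the 20 tested junction partners outside the symbol rule, such as adaptors and polarity proteins, passed the edgeR test.

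**Figure D4:**
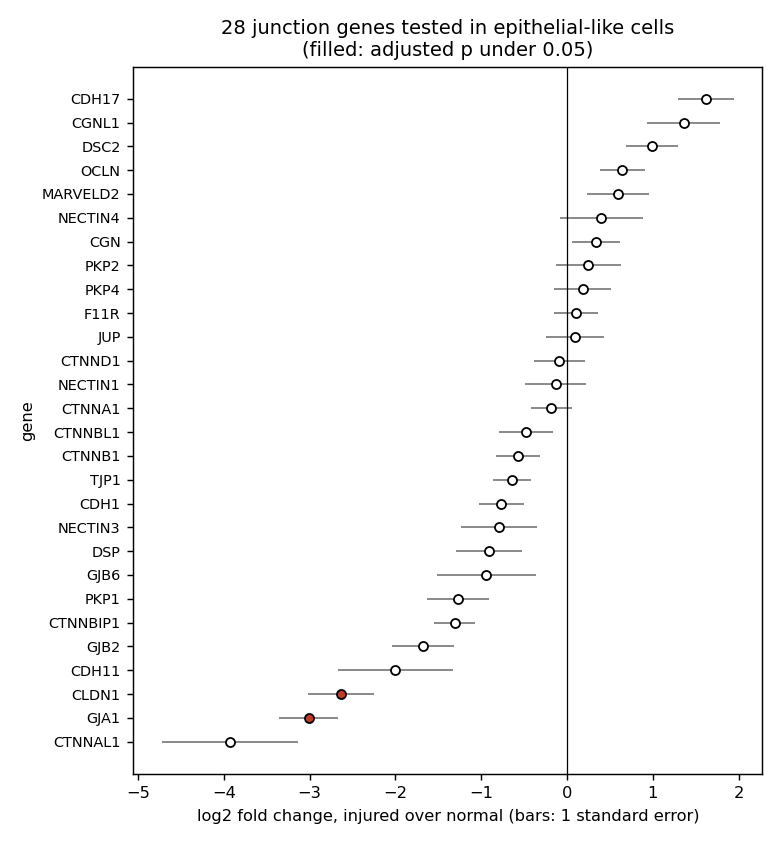
Log2 fold changes of injured over normal rabbits are shown for the 28 junction genes tested in epithelial-like cells. Bars are 1 standard error, derived from edgeR's F statistic, and points are filled for an edgeR adjusted p under 0.05. GJA1 (−3.01) and CLDN1 (−2.63) are filled, and CTNNAL1 (−3.93) and CDH17 (1.62) lie at the ends.

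Because urothelial layers differ in junctions, epithelial-like cells were also sorted by the basal keratin KRT5 and the uroplakins (UPK1B and UPK3B) of more mature cells. KRT5-gated cells held a KRT5 UMI and no uroplakin UMI and made up 8.14%, 18.4%, 32.9% and 33.9% of the epithelial-like cells of Injury_1, Injury_2, Normal_1 and Normal_2. UPK-gated cells, with the reverse, made up 69.4%, 40.4%, 27.0% and 14.6%. Both gates thus differed in share between the groups, and the UPK gate of Normal_2 held 25 cells. Cells with no UMI of either kind made up 13.3%, 23.7%, 37.0% and 48.0%, and cells with both kinds 9.2%, 17.5%, 3.17% and 3.51%. All of these lay outside the gates. The median depth per rabbit was 14175 to 22635 UMIs in KRT5-gated and 10986.5 to 18538 UMIs in UPK-gated cells.

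Within the same rabbit, 7 of 22 junction genes tested differed between the gates, against 18.4% of all 5009 genes. There were 5 that were higher in KRT5-gated cells (10% of all genes): GJA1, GJB2, CTNNBIP1, CLDN1 and CDH1. GJA1 measured 28.8, 14.3, 200.4 and 85.3 CPM in KRT5-gated and 12.5, 9.10, 64.1 and 36.2 CPM in UPK-gated cells of Injury_1, Injury_2, Normal_1 and Normal_2, higher in 4 of 4 rabbits. Its log2 fold change was 1.48 ± 0.22 (edgeR adjusted p 0.00281, rabbit as a block). GJB2 was at 8.08, 10.1, 32.4 and 28.7 CPM against 3.80, 7.18, 8.96 and 2.41 CPM (1.64 ± 0.40, edgeR adjusted p 0.0204), also higher in 4 of 4 rabbits. The UPK gate of Normal_2 held 414633 UMIs in all, so its 2.41 CPM rests on very few GJB2 UMIs.

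CTNNBIP1 was at 141, 107, 388 and 182 CPM in KRT5-gated and 92.0, 79.0, 87.6 and 98.9 CPM in UPK-gated cells (log2 fold change 1.18 ± 0.30, edgeR adjusted p 0.0235). Its UPK-gated level was even across the rabbits and the KRT5-gated level was not. CDH1 was higher in 4 of 4 rabbits (0.63 ± 0.17, edgeR adjusted p 0.0304). CLDN1 was higher in 3, the exception being Injury_2 with 5.91 CPM in KRT5-gated and 8.62 CPM in UPK-gated cells (1.02 ± 0.26, edgeR adjusted p 0.0240).

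There were 2 junction genes that were higher in UPK-gated cells (8.38% of all genes). OCLN measured 149, 110.5, 65.8 and 65.6 CPM in KRT5-gated and 209.8, 169, 159.9 and 96.5 CPM in UPK-gated cells of Injury_1, Injury_2, Normal_1 and Normal_2 (log2 fold change −0.59 ± 0.15, edgeR adjusted p 0.0257). NECTIN3 was at 4.62, 1.69, 7.08 and 8.20 CPM against 14.8, 8.14, 27.6 and 21.7 CPM (−1.59 ± 0.31, edgeR adjusted p 0.00834). Both were lower in KRT5-gated cells of every rabbit. TJP1 (0.28 ± 0.15), CTNNB1 (0.24 ± 0.16) and DSP (0.36 ± 0.20) did not pass the test.

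Of 17 tested junction partners outside the rule, ACTN1 (alpha-actinin-1, log2 fold change 1.52 ± 0.31, edgeR adjusted p 0.00965) and LIMA1 (0.53 ± 0.16, edgeR adjusted p 0.0409), both actin-binding proteins, were higher in KRT5-gated cells. CXADR, an adhesion molecule of tight junctions, was lower in them (−0.98 ± 0.18, edgeR adjusted p 0.00674). Gate calls depended on the choice of cells and on single rabbits. With cells thinned to 5000 UMIs, which left 11 UPK-gated cells in Normal_2 and 14 junction genes to test, 2 were called (13.5% of all genes). With at least 2 UMIs for a gate, which left 3 rabbits, 1 was called (4.69% of all genes). Without Normal_1 2 were called (11.1% of all genes) and without Normal_2 3 (5.62%). Of 11 alternatives, the calls of CDH1, CLDN1 and OCLN passed under 4 each, that of CTNNBIP1 under 8 and that of GJA1 under 10. GJB2 passed under 5 of the 7 and NECTIN3 under 7 of the 8 alternatives that tested them. All 7 kept their sign, and without the rabbit block none passed. PKP4 was lower in KRT5-gated cells of every rabbit (−0.75 ± 0.29, edgeR adjusted p 0.0975). Library size alone gave 5 and turned the split of all calls from 503 higher and 420 lower in KRT5-gated cells to 313 and 566, as the median of all genes moved to −0.14.

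**Figure D5:**
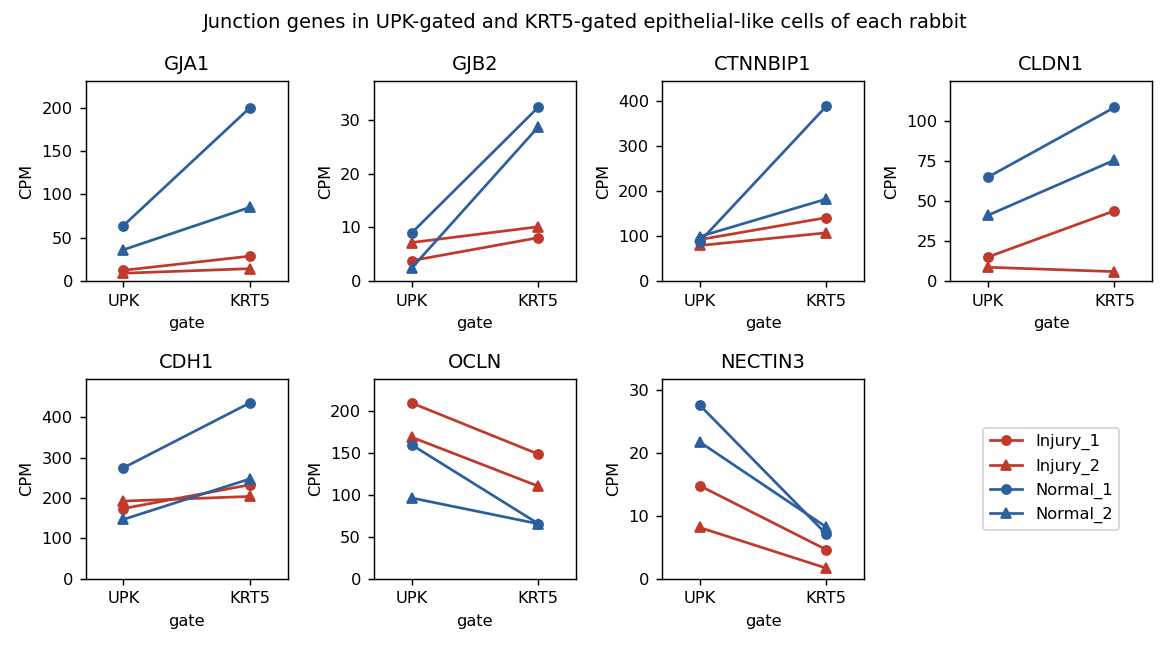
Lines join the CPM of UPK-gated and KRT5-gated epithelial-like cells of the same rabbit for the 7 junction genes that differed between the gates, in red for injured and blue for normal rabbits. Lines rise for GJA1, GJB2, CTNNBIP1 and CDH1 and fall for OCLN and NECTIN3 in all 4 rabbits, and for CLDN1 the line of Injury_2 falls.

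Within each gate the injury comparison called no junction gene, with 10 of 23 and 7 of 26 at p under 0.05 before adjustment in the edgeR test of KRT5-gated and UPK-gated cells (21.7% and 11.3% of all genes). DESeq2 called 4 and 2, against 4.25% and 1.21% of all genes. Over all genes edgeR called 0.92% and 0.0906% after adjustment. The groups did not overlap for 14 of 23 and 12 of 26 junction genes, against 57.2% and 40.6% of all genes. GJA1 had the largest fall in both gates, with a log2 fold change of −3.06 ± 0.49 (edgeR adjusted p 0.0502) in KRT5-gated and −2.34 ± 0.36 (edgeR adjusted p 0.0600) in UPK-gated cells. CTNNAL1 in KRT5-gated cells had −3.01 ± 0.66 (edgeR adjusted p 0.0748), at 6.92 and 5.91 CPM in the injured and 22.3 and 62.3 CPM in the normal rabbits. The GJA1 levels are those given above, 28.8 and 14.3 against 200.4 and 85.3 CPM and 12.5 and 9.10 against 64.1 and 36.2 CPM. In UPK-gated cells CDH5 was at 0 in Injury_2, Normal_1 and Normal_2. The 8 endothelial markers summed to 54.9, 58.4, 31.0 and 33.8 CPM there in Injury_1, Injury_2, Normal_1 and Normal_2. PECAM1 made up only 1.9, 1.9, 4.1 and 2.4 CPM of this, from few UMIs. Of the 8 markers 2 were lower and 2 higher in both injured rabbits, and the part of endothelial RNA was not tested.

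CLDN1 measured 14.98 and 8.62 CPM in UPK-gated cells of Injury_1 and Injury_2 and 64.8 and 41.0 CPM in those of Normal_1 and Normal_2 (log2 fold change −2.26 ± 0.37, edgeR adjusted p 0.0630). In KRT5-gated cells it was at 43.8 and 5.91 against 108 and 75.5 CPM (−2.28 ± 0.68, edgeR adjusted p 0.136). DSC2 in KRT5-gated cells was at 183 and 149 CPM against 66.8 and 45.9 CPM (1.25 ± 0.27, edgeR adjusted p 0.0724), and overlapped between the groups in UPK-gated cells. OCLN was higher in both injured rabbits in KRT5-gated (0.66 ± 0.25, edgeR adjusted p 0.194) and UPK-gated cells (0.44 ± 0.28, edgeR adjusted p 0.601), and so was CGN in KRT5-gated cells (0.52 ± 0.39, edgeR adjusted p 0.470). In UPK-gated cells JUP (0.36 ± 0.34, edgeR adjusted p 0.758) and F11R (0.17 ± 0.29, edgeR adjusted p 0.892) were higher and NECTIN3 lower (−1.19 ± 0.43, edgeR adjusted p 0.358) in both injured rabbits. CTNNBIP1, at 141 and 107 against 388 and 182 CPM in KRT5-gated cells (−1.50 ± 0.37, edgeR adjusted p 0.0934), overlapped in UPK-gated cells, at 92.0 and 79.0 against 87.6 and 98.9 CPM. With 1 library left out in turn, the log2 fold change of CLDN1 was −4.17 to −1.43 in KRT5-gated and −2.67 to −1.96 in UPK-gated cells. That of DSC2 was 1.04 to 1.47 in KRT5-gated cells. Calls in both gates depended on which library was left out, for junction genes and for all genes. Library size alone moved the median of all genes in KRT5-gated cells to 0.29 and the split of all calls from 18 higher and 27 lower to 10 and 1.

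In none of the other 6 classes did a junction gene pass the edgeR test. At p under 0.05 before adjustment there were 3 of 26 genes in fibroblast-like (11.1% of all genes), 3 of 23 in endothelial-like (6.71%), 0 of 15 in smooth muscle-like (4.49%), 3 of 18 in pericyte-like (9.4%), 1 of 7 in T cell-like (14.5%) and 2 of 12 in macrophage-like cells (14.1%). Over all genes and after adjustment, edgeR called 0.119%, 0%, 0%, 0%, 0.022% and 0% in these classes. DESeq2 called 1 junction gene in T cell-like cells (2.06% of all genes) and 0 in the other 5 classes. With library size alone the median of all genes moved to −0.10 in fibroblast-like, 0.17 in T cell-like and 0.16 in macrophage-like cells.

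Of the 7 junction genes led by endothelial-like cells, 5 overlapped between the groups there (GJA1, TJP1, CTNNAL1, PKP4 and JAM2), while CDH5 and CDH13 did not. CDH5 measured 137 and 149.6 CPM in the injured and 155 and 185 CPM in the normal rabbits, a log2 fold change of −0.32 ± 0.24 (edgeR adjusted p 0.879). GJA1 had a log2 fold change of 0.15 ± 0.28, TJP1 of −0.21 ± 0.23 and OCLN, which overlapped too, of −0.23 ± 0.60. CDH13 was at 27.7 and 26.2 CPM against 14.3 and 12.9 CPM (0.93 ± 0.23, edgeR adjusted p 0.606). CTNNBIP1 (0.31 ± 0.25, edgeR adjusted p 0.896) and CTNND1 (0.20 ± 0.21, edgeR adjusted p 0.916) were higher in both injured rabbits without passing the test. Here 8 of 23 tested junction genes did not overlap, against 36.6% of all genes.

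CDH13 differed in the same direction in pericyte-like cells, at 12.3 and 11.5 CPM against 1.15 and 0.815 CPM (log2 fold change 3.51 ± 0.67, edgeR adjusted p 0.136). Pericyte-like cells of Normal_1 and Normal_2 held 870497 and 1226705 UMIs in all, so the normal values rest on very few CDH13 UMIs. CDH13 went the other way in fibroblast-like cells, at 3.42 and 2.99 against 6.43 and 7.42 CPM (−1.03 ± 0.33, edgeR adjusted p 0.338). In pericyte-like cells 6 of 18 junction genes did not overlap (40.1% of all genes), among them GJC1, at 182 and 174 against 281 and 229.9 CPM (−0.54 ± 0.25, edgeR adjusted p 0.592), and CDH11, at 102 and 130.1 against 73.5 and 70.9 CPM (0.67 ± 0.27, edgeR adjusted p 0.519). With 1 library left out in turn, the log2 fold change in pericyte-like cells was −0.637 to −0.419 for GJC1 and 0.462 to 0.858 for CDH11. Whether a junction gene was called in these cells depended on which library was left out. All 5 fibroblast markers were higher in pericyte-like cells of both injured rabbits, summing to 5210 and 6291 against 1507 and 4139 CPM, and their part in these values was not tested.

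In fibroblast-like cells 5 of 26 junction genes did not overlap (44.6% of all genes). CTNNAL1 measured 11.1 and 10.0 CPM in the injured and 22.7 and 28.04 CPM in the normal rabbits (log2 fold change −1.17 ± 0.29, edgeR adjusted p 0.212). DSC2 was at 12.4 and 14.95 against 6.43 and 7.42 CPM (1.06 ± 0.30, edgeR adjusted p 0.279), the same direction as in epithelial-like cells. In smooth muscle-like cells 3 of 15 did not overlap (34.6% of all genes), with NECTIN3 at 27.4 and 27.9 against 10.7 and 18.8 CPM (0.86 ± 0.44, edgeR adjusted p 0.958), CTNNBL1 at 0.17 ± 0.31 (edgeR adjusted p 0.980) and CTNNAL1 at −0.51 ± 0.35 (edgeR adjusted p 0.958).

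Some well-known members could be followed across classes. TJP1 had log2 fold changes between −0.37 ± 0.25 in fibroblast-like and 0.26 ± 0.27 in pericyte-like cells in the stroma and vessels, and −1.69 ± 0.69 in macrophage-like cells. CTNNB1 lay between −0.72 ± 0.43 in T cell-like and 0.00 ± 0.29 in smooth muscle-like cells. GJA1 was at −1.28 ± 0.55 in pericyte-like and 0.64 ± 0.72 in smooth muscle-like cells, none of which passed the test.

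CTNNA1 in T cell-like cells came nearest to a call among these classes, at 30.2 and 25.3 CPM in the injured and 127 and 92.5 CPM in the normal rabbits (log2 fold change −2.13 ± 0.27, edgeR adjusted p 0.0671). It passed the threshold without any one of the 4 libraries and in DESeq2. The 8 endothelial markers summed to 76.3 and 37.0 CPM in these cells of the injured and 155.5 and 68.8 CPM in those of the normal rabbits, and the 7 epithelial markers to 126 and 89.4 against 184 and 41.3 CPM, and their part was not tested. In macrophage-like cells CDH5 was at 0.947 and 1.05 CPM against 14.0 and 6.003 CPM (−3.36 ± 0.67, edgeR adjusted p 0.127). The endothelial markers summed to 348 and 284 against 508 and 458 CPM. Of this, PECAM1 alone made up 315 and 254 against 439 and 339 CPM. Macrophage-like cells of Normal_1 and Normal_2 held 571441 and 666310 UMIs in all. CDH5 rests on few UMIs in every rabbit, and the part of endothelial RNA was not tested. CTNNBIP1 (0.37 ± 0.32), CTNNA1 (−0.33 ± 0.21) and CTNNB1 (−0.44 ± 0.29) did not overlap in macrophage-like cells either, with edgeR adjusted p of 0.651, 0.520 and 0.529, nor did CTNNBL1 in T cell-like cells (0.22 ± 0.33, edgeR adjusted p 0.807). Of 7 and 12 junction genes tested, 2 and 7 did not overlap in T cell-like and macrophage-like cells, against 49.7% and 47.8% of all genes.

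The injury effects were compared between 6 pairs of 4 classes (fibroblast-, endothelial-, epithelial- and smooth muscle-like) with an interaction term. The fall of GJA1 in epithelial-like cells differed from its effect in fibroblast-like cells by −2.80 ± 0.30 on the log2 scale (edgeR adjusted p 0.00479), and this difference was called without any one of the 4 libraries. In fibroblast-like cells GJA1 was at 35.9 and 34.8 CPM in the injured and 62.8 and 26.3 CPM in the normal rabbits, with overlap. Against endothelial-like cells the difference was −3.04 ± 0.35 (edgeR adjusted p 0.0315), and was lost without Injury_1, Injury_2 or Normal_1 (edgeR adjusted p 0.324, 0.267 and 0.0534).

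The injury effect on CDH13 differed by 1.93 ± 0.33 on the log2 scale between endothelial-like and fibroblast-like cells (edgeR adjusted p 0.0475), and this was lost without Injury_1, Injury_2 or Normal_2 (edgeR adjusted p 0.312, 0.212 and 0.0604). In these pairs 1 junction gene each was called, against 2.48%, 0.357% and 0.47% of all genes for epithelial-like minus fibroblast-like, epithelial-like minus endothelial-like and endothelial-like minus fibroblast-like cells. The other 3 pairs called 0 junction genes in edgeR, with 3 of 23, 4 of 25 and 7 of 34 at p under 0.05 before adjustment for smooth muscle-like cells minus fibroblast-, endothelial- and epithelial-like cells, where edgeR called 0.0831%, 0.0136% and 0.387% of all genes.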

How the data were processed

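Libraries were made with 10x Genomics 3′ chemistry and the authors deposited 1 matrix of UMI counts per rabbit, written by Cell Ranger 6.0.1 per the file headers. The genome release is not given in the sources used here. Cells with at least 500 UMIs, 200 genes and at most 15% of UMIs from 13 mitochondrial genes were kept (21945 cells). They were integrated and clustered in Seurat 5.3.0 (R 4.3.3; 2000 variable genes without the junction genes, 30 components, resolution 0.8), and doublets were kept. Clusters were named from listed markers when at least 3 were raised. A cluster with a second class scoring within 0.5 stayed unnamed, a margin set after the data were seen. UMI counts were summed per class and rabbit and tested in edgeR 4.0.16 (quasi-likelihood, TMM, filterByExpr, Benjamini-Hochberg over all genes, threshold 0.05), with DESeq2 1.42.0 as an alternative. Scripts were tested on simulated data. Standard errors of log2 fold changes are the absolute log2 fold change divided by the square root of edgeR's F statistic. p-values rest on 2 rabbits against 2.

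The junction genes, marker lists and tests were chosen with earlier results of these data known. Genes named were those past the threshold, the 3 largest rises and falls without overlap at 20 CPM or more, class levels of 20 CPM or more, and TJP1, OCLN, CDH1, CDH5, CTNNB1, DSP and GJA1. Others, among them CDH17, CDH13 outside the interaction test and CTNNBIP1 and GJB2 in the injury tests, were chosen after their values were seen. Of 50 junction partners listed outside the rule, 30 had a symbol in the files. Same-numbered rabbits were not paired by the labels.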

Additional observations from a re-analysis of the deposited data

Results flagged for a closer look

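The difference of OCLN between KRT5-gated and UPK-gated cells stood apart in 1 rabbit. On the scale of log2(CPM + 10) it was −1.17 in Normal_1 and −0.47, −0.57 and −0.49 in Injury_1, Injury_2 and Normal_2, a gap over Dixon’s 95% critical value for 4 samples. Such differences were examined for 22 genes, and chance alone sets apart about 1 in 20 groups. All 4 differences had the same sign.

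The injury effect on GJA1 differed between epithelial-like and fibroblast-like cells (−2.80 on the log2 scale) and between epithelial-like and endothelial-like cells (−3.04), and that on CDH13 between endothelial-like and fibroblast-like cells (1.93), each by an interaction term past the edgeR threshold.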

How the results depend on the processing

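With 2 rabbits a group, counts of called junction genes moved with single libraries. Whether depth limited the calls of genes at low levels was not tested. The cause of the shifts below was not tested. GJA1 and CLDN1 in epithelial-like cells kept their sign under all 13 alternatives and passed the threshold under 11. Without the filter on low counts, edgeR called 10 of 46 junction genes in epithelial-like cells (8.02% of all genes) and 4 of 41 in macrophage-like cells (3.99%). It called 1 of 53 in fibroblast-like cells (4.26%), 1 of 34 in T cell-like cells (3.53%) and 12 of 44 between the gates (10.9%). DESeq2 called 7 of 30 in epithelial-like cells (6.32% of all genes), 1 of 4 in T cell-like (2.06%), 4 of 24 in KRT5-gated (4.25%) and 2 of 27 in UPK-gated cells (1.21%). The mitochondrial limit of 10% gave 0 in epithelial-like cells (0.805% of all genes) and no value for smooth muscle-like cells, which were too few. Between the gates, 2 of 14 tested were called with cells thinned to 5000 UMIs (13.5% of all genes). With at least 2 UMIs, which left 3 rabbits, 1 of 20 was called (4.69%). Without thinning, the shares of cells with a UMI were 75.9% (CDH1), 56.1% (CDH5) and 29.7% (GJA1).

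Same-numbered rabbits of the 2 groups deviated with a correlation of −0.0212 to 0.187 over genes, so the numbers were not taken to pair them. A replicate block gave 1 called junction gene in fibroblast-like cells (6% of all genes) and 5 in KRT5-gated cells (4.29%). It changed no other count by over 1.5 times. Without the rabbit block 0 junction genes differed between the gates, against 1.14% of all genes.

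Fibroblast-like cells led for 2 genes in place of 1 when junction genes were allowed among the variable genes, without integration, or with the PTPRQ cluster joined to them, an alternative chosen after seeing the data. Leaving out 1 library in turn gave 1 to 2 genes led by fibroblast-like and 0 to 1 by T cell-like cells. In the injury tests it moved the count of called junction genes in epithelial-, pericyte-, T cell- and macrophage-like cells and in both gates. The count over all genes moved in each of these as well. Between the gates 2 to 9 junction genes were called, against 5.62% to 19.5% of all genes. For the interactions, where leaving out libraries was added after seeing the data, it gave 0 to 4 (endothelial-like minus fibroblast-like), 1 to 9 (epithelial-like minus fibroblast-like), 0 to 8 (epithelial-like minus endothelial-like), and for smooth muscle-like cells 0 to 1 minus fibroblast-like, 0 to 1 minus endothelial-like and 0 to 3 minus epithelial-like cells.

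Signs turned only among log2 fold changes that were not called. CTNNB1 in smooth muscle-like cells went to −0.00123 (library size), −0.0165 (no filter), −0.0109 (DESeq2), −0.00964 (replicate block), −0.0542 (doublets left out), −0.193 (no integration) and −0.152 (junction genes among the variable genes). OCLN in endothelial-like cells was 0.0197 with the replicate block. Without integration, CTNNB1 was 0.0154 and GJA1 0.182 in fibroblast-like cells, GJA1 0.0628 in macrophage-like and −0.514 in smooth muscle-like cells. Leaving out 1 library, the ranges that crossed 0 were, in fibroblast-like cells, CDH1 −1.82 to 1.63, CTNNB1 −0.185 to 0.0271, DSP −0.575 to 1.67, GJA1 −0.651 to 0.463 and OCLN −1.55 to 2.04. In endothelial-like cells they were GJA1 −0.191 to 0.423 and OCLN −0.892 to 1.01, and in pericyte-like cells CTNNB1 −0.599 to 0.068. Smooth muscle-like cells had CTNNB1 −0.245 to 0.208, GJA1 −0.0245 to 1.78 and TJP1 −0.408 to 0.238. T cell-like cells had CTNNBL1 −0.0938 to 0.782, GJA1 −1.38 to 2.05 and TJP1 −0.262 to 2.16. UPK-gated cells had CDH1 −0.531 to 0.0714, F11R −0.0797 to 0.46, JUP −0.0569 to 0.77 and TJP1 −0.834 to 0.0327.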

Other observations

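Junction genes were also measured in classes with too few cells for a comparison. Glia-like cells (37, 45 and 25 cells in Injury_1, Injury_2 and Normal_1) had CDH19, a cadherin of Schwann cell precursors, at 739.7, 624.3 and 814.9 CPM, and CDH2 (N-cadherin) at 170.7, 109 and 141 CPM. CTNNAL1 was at 468, 516 and 501.5 CPM in them, and CLDN19 at 67.8 CPM in Injury_2 (15 UMIs). Lymphatic endothelial-like cells (28 and 52 cells in Injury_1 and Injury_2) had CTNNAL1 at 503 and 444 CPM, F11R at 168 and 188 CPM and GJA1 at 273 and 195 CPM. These values rest on 9 to 138 UMIs per gene and rabbit, with no test.

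In the unnamed PTPRQ cluster, NECTIN3 was at 53.3, 55.5, 53.3 and 66.8 CPM and CTNNAL1 at 77.2, 60.4, 41.2 and 48.6 CPM in Injury_1, Injury_2, Normal_1 and Normal_2. GJA1 was at 138.9 and 119 CPM in Injury_1 and Normal_1 and at 56.8 and 62.5 CPM in Injury_2 and Normal_2, so the groups overlapped.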
